A study of Arabidopsis thaliana with 42 samples.

Results

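Many Arabidopsis genes are annotated with more than 1 transcript model, numbered 1, 2 and so on in the suffix of the locus ID, and the 200 genes described here are those in which the share of a gene's transcripts assigned to 1 model differed most between old and young leaves. Usage is a model's FPKM (fragments per kilobase of transcript scaled to a fixed number of mapped fragments, a level per length) divided by the summed FPKM of all models of the gene. A gene was considered if it was nuclear, had 2 or more models and had a summed FPKM of at least 5 at days 6, 8, 28 and 30 in both replicate sets. Of 33604 genes in the total RNA tables, 5885 were nuclear with 2 or more models, and 2153 of these met the FPKM limit. The change of a model was its mean usage at days 28 and 30 minus that at days 6 and 8, and the 200 genes with the largest change of any model, with the same sign in both sets, were taken. The model with that change is called the lead model. Days 28, 30, 6 and 8 therefore chose the genes: their values are given as a description, with no test, while tests use the libraries of days 10 to 26, which took no part in the choice.

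The study followed the leaf of wild-type Arabidopsis thaliana through its life, with total RNA at 14 ages from 4 to 30 days after emergence in steps of 2 days. Each age had 2 independent biological replicates, called set 1 and set 2, which gives 28 total RNA libraries. All leaves were wild type and no treatment is named in the labels, which give age as the difference between groups. Groups used below are days 28 and 30 against days 6 and 8 (4 libraries each) and days 22, 24 and 26 against days 10, 12 and 14 (6 libraries each). The small RNA libraries of the series were not used. The labels name neither the position of the leaf on the plant nor any pooling of plants.

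A plant gene gives rise to several transcripts when introns are spliced at different sites or retained, when transcription starts at another promoter, or when the 3' end is cut at another place. Such transcripts may encode different proteins, differ in where the protein goes in the cell, or be destroyed by nonsense-mediated decay, the pathway that removes messages with early stop codons. Serine/arginine-rich (SR) proteins are central regulators of splice site choice in plants, and many of their own genes are alternatively spliced. Leaf ageing ends in senescence, in which chloroplasts are dismantled, autophagy rises and nitrogen and other nutrients are moved out of the leaf. The reads of a gene's models overlap, since models share most exons, so a model's FPKM is an estimate of how reads are divided among models, and the estimate is least certain for models of low level.

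The libraries behaved as leaf libraries of rising age. The 6 photosynthesis markers summed to between 558 and 2619 FPKM at days 28 and 30, against 8652 to 11888 FPKM at days 6 and 8, and 5 senescence markers to between 2026 and 4413 FPKM, against 15.6 to 34.6 FPKM. At days 22 to 26 the photosynthesis sum was 3181 to 6007 FPKM and the senescence sum 248 to 904 FPKM, against 7933 to 11018 FPKM and 44.6 to 229 FPKM at days 10 to 14. In these whole-leaf samples, fewer cells of a type and less RNA per cell cannot be told apart. Flower markers AP3, PI and AG summed to between 1.01 and 1.86 FPKM at days 28 and 30, against 0.419 to 0.873 FPKM at days 6 and 8, and to between 0.391 and 1.29 FPKM at days 22 to 26, against 0.550 to 1.51 FPKM at days 10 to 14. Seed markers CRA1, OLEO1 and SESA1 summed to between 0 and 5.79 FPKM at days 28 and 30, against at most 0.124 FPKM at days 6 and 8, and to at most 0.059 FPKM at days 22 to 26, against 0 at days 10 to 14. Both sums reached higher in the old libraries that chose the genes, and their part in the choice was not tested. The day 4 library of set 1 stood apart, with a summed FPKM of 331479 against 439949 to 484348 in the other libraries and a correlation across genes of 0.958 with its partner, against 0.988 to 0.994 at other ages. Day 4 entered neither the choice nor the main test. Read depth cannot be read from FPKM and is unknown here.

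Among the 200 genes the lead model held a larger share in old leaves in 93 and a smaller share in 107. It was model 1 in 136 genes and another model in 64. In the 102 genes with 2 models the 2 changes are equal and opposite, and the model with the lower number was taken as lead. For these genes, whether the lead model gained or lost share depends on the numbering. The same holds for the counts of gains and losses below. The change spanned 13.5 to 69.3 percentage points, with a median of 19.8 points. All 200 were protein coding and were matched by locus to RefSeq names. The 3 genes just inside the limit were PAP8, MLO1 and AT5G17010, at -13.56, -13.53 and -13.46 points, and the 3 just outside it were APG8A, TSD2 and KIN11, at -13.46, -13.39 and -13.38 points. The group therefore has no gap at its edge.

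The genes differed from the other 1953 that met the FPKM limit in several ways the change itself does not state. Of the 200 genes, 98 (49%) had 3 or more annotated models, against 29.7% of the others, and since the rule takes any model, a gene with more models had more chances to enter. Their median gene length was 3303.5 bp, against 2785 bp, and their median summed FPKM over all libraries 18.8, against 24.0. Overlap with another annotated gene was about as common, in 65 (32.5%) against 34.5%; the labels do not say whether reads were assigned by strand, so values of overlapping genes are less certain. The most abundant model was another one in old than in young leaves in 54 of the 200 (27%), against 2.51% of the other genes, a direct result of the choice. In the libraries the choice did not use, the most abundant model differed between days 22 to 26 and days 10 to 14 in 26 (13%), against 2.25%. That count takes any difference and is not a count of repeats of the change between old and young leaves. ALDH7B4, LNK1, LPP3, AGO1, AT5G47710, AT1G75180, AT1G31540, AT5G05800, AT3G23900, AtSF1 and AT2G26800 repeated it. F3H and AT2G27710 had it reversed, and in G6PD5, AT3G26890 and AT3G58030 another model was involved. In PPDK, SAMDC, HEMB1, EXO70E2, CLPS3, AT1G24300, smB, SRT2, ACR3 and ADA2B the most abundant model was the same in old and young leaves. The part of noise in the count was not tested.

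A change of share came about in different ways. In 81 genes the lead model and the remaining models moved in opposite directions in mean FPKM between old and young leaves. Both were higher in old leaves in 96 genes, and both lower in 23. Of the 93 genes whose lead model gained share, 41 had a higher lead FPKM and lower FPKM of the other models in old leaves, 44 had both higher and 8 both lower. Of the 107 whose lead model lost share, 40 had a lower lead FPKM beside higher FPKM of the others, 52 had both higher and 15 both lower. In these libraries, which chose the genes, models thus moved unequally in the same direction more often than in opposite directions. The counts are a description of FPKM as deposited. A shift in level common to many genes is not removed from them, and its part was not tested. The plot of lead and other models gives the FPKM values of 6 genes by age and does not show every kind.

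**Figure D1:**
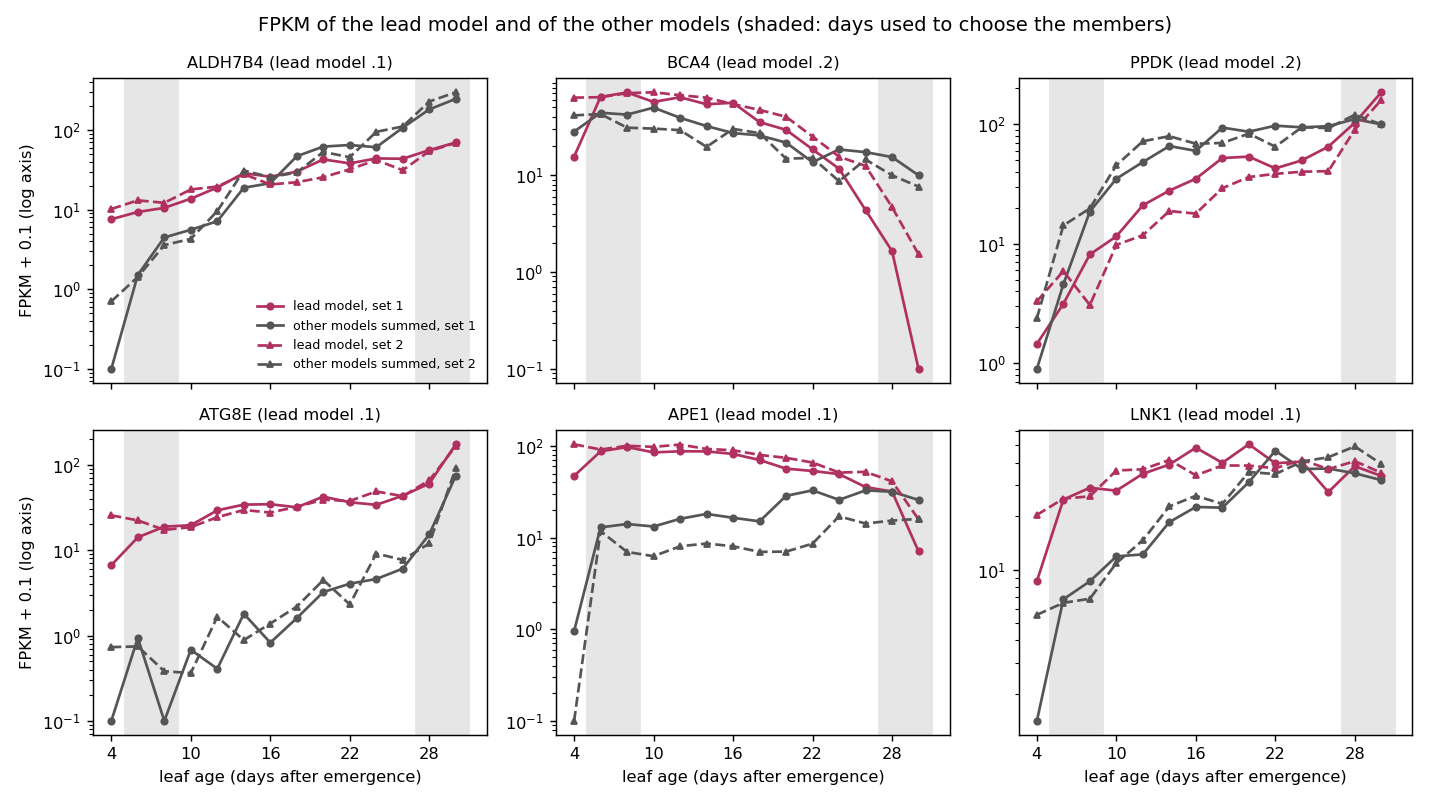
FPKM of the lead model (red) and of the other models summed (grey), with 0.1 added for a log axis, against leaf age in days after emergence for 6 genes; circles and solid lines are set 1, triangles and dashed lines set 2, and shading marks the days that chose the genes. In ALDH7B4 the other model overtakes the lead model by day 18 in both sets, in BCA4 the lead model is the one that drops away, and in ATG8E both models climb with the second one climbing more.

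ALDH7B4 (AT1G54100), an aldehyde dehydrogenase induced by loss of turgor, had the largest loss of share of any lead model among the 200 genes. Model 1 made up 23.5% and 22.1% (set 1) and 19.2% and 18.8% (set 2) of the gene's FPKM at days 28 and 30, against 86.7% and 70.5% (set 1) and 90.7% and 77.6% (set 2) at days 6 and 8. The groups were far apart, and usage stepped down through nearly the whole time course, with the midpoint passed for good from day 16. Both models were higher in old leaves: model 1 averaged 62.1 FPKM at days 28 and 30 against 11.2 FPKM at days 6 and 8, and model 2 averaged 238 FPKM against 2.66 FPKM. A gene that was mostly model 1 in young leaves was mostly model 2 in old ones.

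BCA4 (AT1G70410), a beta carbonic anhydrase, interconverting carbon dioxide and bicarbonate, moved the other way in level. Model 2 held 9.19% of the gene at day 28 and near 0 at day 30 in set 1, and 31.7% and 15.9% in set 2, against 59.3%, 62.9%, 59.9% and 69.5% in the 4 libraries of days 6 and 8. All 4 old libraries lay under all 4 young ones. Model 2 averaged 1.89 FPKM in old leaves against 67.3 FPKM in young ones, while the other 2 models together averaged 10.6 FPKM against 39.9 FPKM. In the FPKM of set 1 the day 14, 20, 26 and 28 values of model 2 ran 53.8, 29.3, 4.26 and 1.55, and those of model 3 ran 21.6, 19.6, 12.9 and 13.1, so that model 3 became the main form.

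The largest change of all was in AT1G21780, whose model 1 held 70.0% and 78.9% (set 1) and 73.8% and 89.4% (set 2) at days 28 and 30, against 5.28% and near 0 (set 1) and 29.5% and near 0 (set 2) at days 6 and 8. In AT4G32250 model 1 held 72.3%, 79.5%, 65.5% and 70.8% in the old libraries, against 14.5% in 1 young library and near 0 in the other 3. Neither gene's groups overlapped, although usage between those ages swung widely from library to library, as the plot of the 12 largest changes shows. PILS3, of the PIN-LIKES family of auxin carriers, was less even: its model 1 held 26.6% and 99.9% (set 1) and 50.0% and 100% (set 2) in old leaves, against 27.1% in 1 young library and near 0 in the other 3, so that the groups overlapped.

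LPP3, a lipid phosphate phosphatase with 5 models, had 45.9%, 72.0%, 29.5% and 55.9% of its FPKM in model 5 at days 28 and 30, against 8.88% in 1 library of days 6 and 8 and near 0 in the other 3. In AT1G63770 model 4 held 86.2%, 83.4%, 75.02% and 75.7%, against 31.9%, 41.4%, 28.8% and 29.4%, with no overlap, a difference of 47.3 points and an SD of 5.6 and 5.8 points (n = 4 each). In AT1G75180 model 3 held 89.7%, 96.8%, 83.2% and 100%, against 68.3%, 24.2%, 27.1% and 16.1%. In each of these 3 genes every old library was above every young one, most narrowly in AT1G75180.

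AT5G47710 was 75.7%, 86.1%, 83.0% and 93.3% model 1 in old leaves, against 30.9%, 43.0%, 9.3% and 15.1% in young leaves. BEL10, of the BELL homeodomain transcription factors, was 64.7%, 61.4%, 65.3% and 69.7% model 1 in old leaves, against 27.1%, 49.8% and 5.8% in 3 young libraries and near 0 in the fourth. The groups were separate in both genes, and the young libraries spread more than the old ones. In 2 of the 12 the young libraries were scattered. Model 1 of AT4G03020 held 34.1%, near 0, 16.5% and 6.7% in the old libraries, against 14.3%, 85.3%, 95.5% and 50.6% in the young ones. PIP5K9, a kinase that makes the membrane lipid phosphatidylinositol 4,5-bisphosphate, had model 2 near 0 in all 4 old libraries, against 76.0%, 46.2%, near 0 and 61.4% in the young ones.

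**Figure D2:**
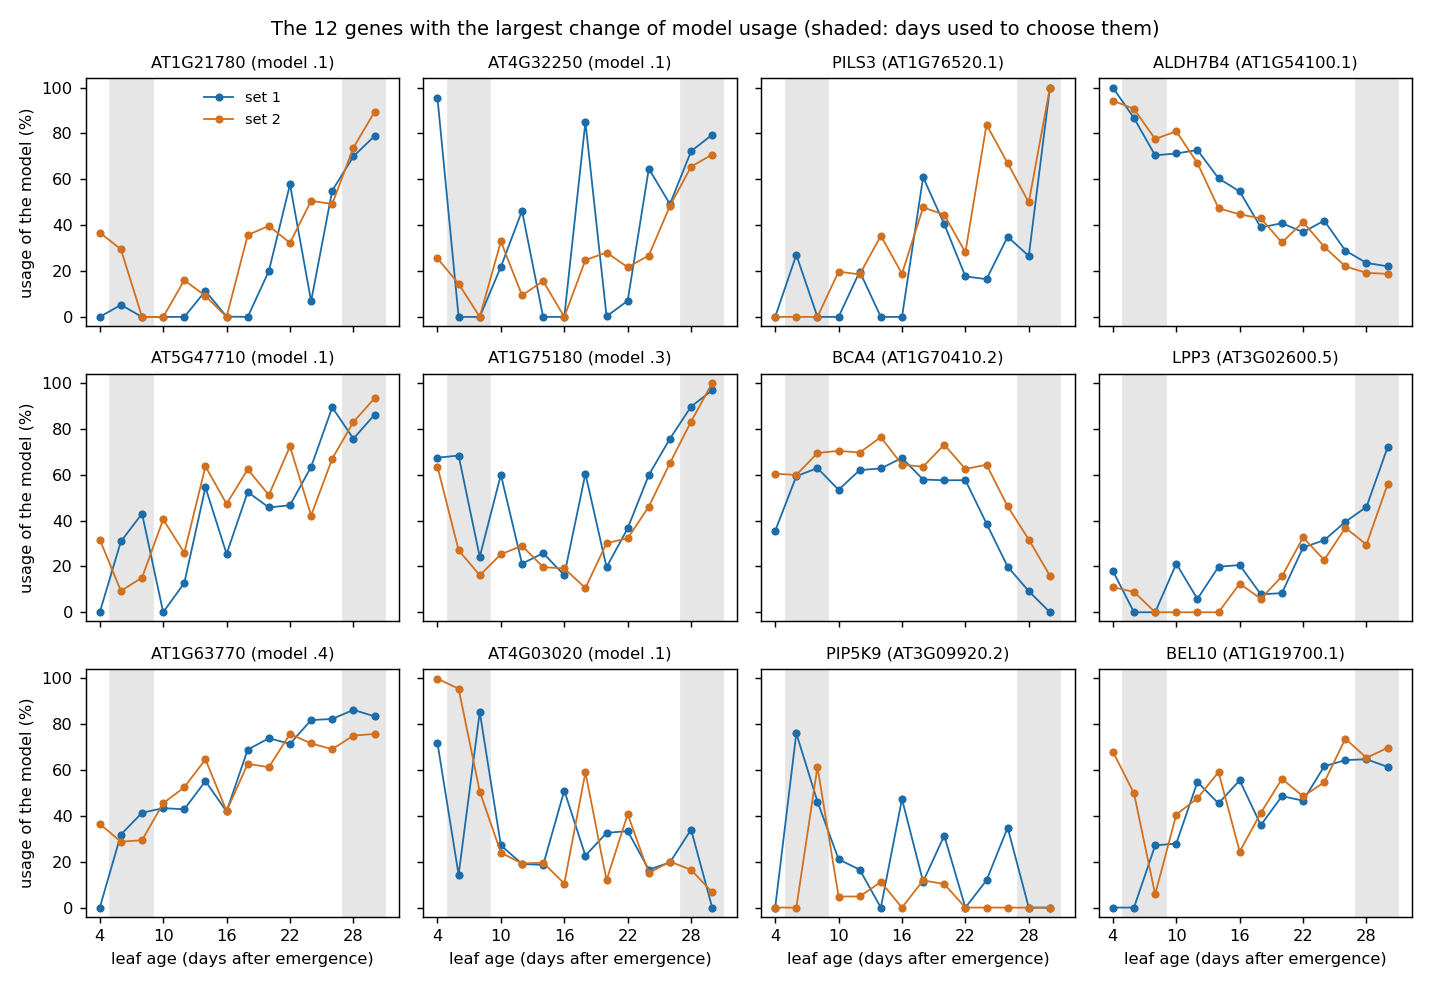
Usage (percent of the gene's summed FPKM) of the lead model against leaf age in days after emergence for the 12 genes with the largest change, with set 1 in blue and set 2 in orange; shading marks days 6, 8, 28 and 30, which chose the genes. ALDH7B4, BCA4, LPP3 and AT1G63770 follow smooth courses in which both sets move together, while AT4G32250, PIP5K9 and AT4G03020 jump between neighbouring ages.

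Usage at the ages in between was followed in each gene. Taking each library's usage relative to the mean of days 6 and 8 in its set, oriented toward the old leaves, the median over the 200 genes at days 10, 14, 20, 26, 28 and 30 was 3.99, 6.81, 11.7, 13.2, 18.1 and 22.4 points in set 1. In set 2 it was 6.24, 8.79, 11.9, 16.9, 19.9 and 24.6 points. The median was thus larger at day 26 than at day 10 in both sets, with the young and old ends fixed by the choice. It did not rise at every step: set 1 had 12.7 points at day 22 and 10.8 at day 24, and set 2 had 9.83 at day 12 and 8.79 at day 14. The baseline of days 6 and 8 and the direction both come from the choice, so a median above 0 at another age is no result. Usage passed the midpoint between its young and old values for good by day 14 in 23 genes, at days 16 to 20 in 36, at days 22 to 26 in 74 and only at day 28 or 30 in 59, and did not settle past it in 8. The midpoint is set by the days that chose the genes, 2 of which are days 28 and 30 themselves, so these counts are a description and do not show that genes differ in the time of their switch.

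**Figure D3:**
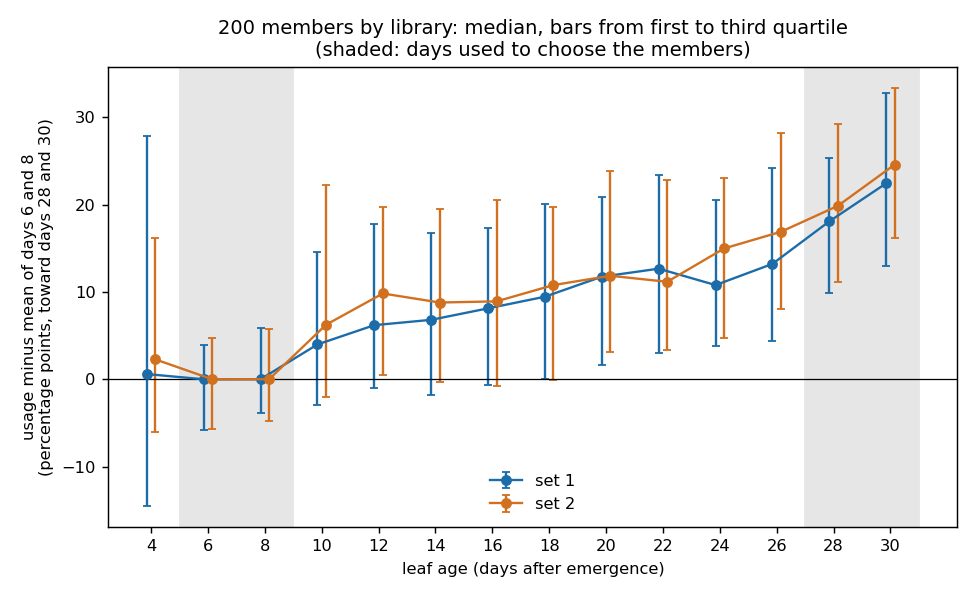
Usage of the lead model minus its mean at days 6 and 8 of the same set (percentage points, counted positive toward days 28 and 30) against leaf age in days, as the median over the 200 genes with bars from the first to the third quartile; set 1 is blue, set 2 orange, and shading marks the days that chose the genes. The median reaches 13.2 (set 1) and 16.9 (set 2) points by day 26, and the quartiles at day 4 of set 1 are the widest.

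These are noisy measurements. The median absolute difference in usage between set 1 and set 2 at the same age was 8.18 to 11.3 points for the 200 genes at days 6 to 30, against 1.68 to 2.16 points for the other genes, and at day 4 it was 21.5 points against 4.63 points. The 4 libraries of days 28 and 30 and the 4 of days 6 and 8 did not overlap in 85 of the 200 genes, where 12.6% of all 2153 did not. That contrast chose the genes, so nothing is read from the count.

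Whether usage moved with age was then tested in libraries that took no part in the choice, by setting days 22 to 26 against days 10 to 14. Of the 200 genes, 16 (8%) changed usage on a log2 ratio of shares that does not move with the gene's level, where 1.72% of all 2153 genes did (limma with Benjamini-Hochberg adjustment over all 2153 genes, threshold 0.05). This level-free ratio was added after the data were seen. On the planned scale, given below as the main one, 24% of the 200 passed, where 28.7% of all genes did. All 16 changed in the direction seen between old and young leaves. The lead model lost share in 10 of them (ALDH7B4, AT1G31540, APE1, AT1G79990, LNK1, APT1, ATG8E, AT1G22750, AT1G55160 and BTR1L) and gained share in 6 (LPP3, AT1G63770, GATA25, GS2, AT5G25520 and XBAT35). On the untransformed share 11 of the 200 passed, where 1.07% of all genes did. The 5 that passed on the level-free ratio but not on the share were AT1G22750, AT1G55160, GS2, AT5G25520 and XBAT35.

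The count of 16 holds many genes close to the threshold. With 1 library left out at a time, 6 to 11 of the 200 passed on the level-free ratio, and 13 to 35 of all 2153 genes. The count of the 200 was 10 or less without any 1 library other than day 12 of set 1, day 24 of set 2 and day 26 of set 1, and lowest, at 6, without day 14 of set 1 or either library of day 16. ALDH7B4, AT1G31540, LNK1, APT1 and GATA25 passed in all 18 such fits, APE1 in 17, AT1G63770 in 12 and ATG8E in 9. AT1G55160 passed in 6, AT1G79990, BTR1L and AT5G25520 in 3 each, AT1G22750 in 2, LPP3 and GS2 in 1 each, and XBAT35 in none. Without the set as a block 5 of the 200 passed (ALDH7B4, AT1G63770, LNK1, APT1 and ATG8E) and 12 of all genes, or 0.557%. The switch of ALDH7B4, LNK1 and APT1 was therefore called whichever library was left out and with or without the block.

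The main scale was the log2 ratio of lead model FPKM + 1 to the other models' FPKM + 1. On it 48 of the 200 genes passed (31 without the day 24 library of set 2), 46 of them in the direction seen between old and young leaves, where 28.7% of all genes passed in either direction and 18.4% in that direction. The count in either direction (24%) is near the background and is no result about these genes. That ratio also moves with a gene's summed level when the other models are near 0, and the lead model held over 95% or under 5% of the gene on average in 473 of the 570 other genes that passed, against 3 of the 48 among the 200. Called or not, 146 of the 200 had the direction of the choice, where 59.4% of all genes did. The median difference toward the old state was 4.97 points of usage over the 200 genes, against 0.18 points over all 2153. Of all 2153 genes, 1460 had a model with the same sign in both sets. For the others the direction is that of the mean of both sets. All genes also include those whose usage hardly changed, so these values are not a background of genes chosen alike. Usage in the 6 libraries of days 22 to 26 and the 6 of days 10 to 14 did not overlap in 12 of the 200, where 1.95% of all genes did not.

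**Figure D4:**
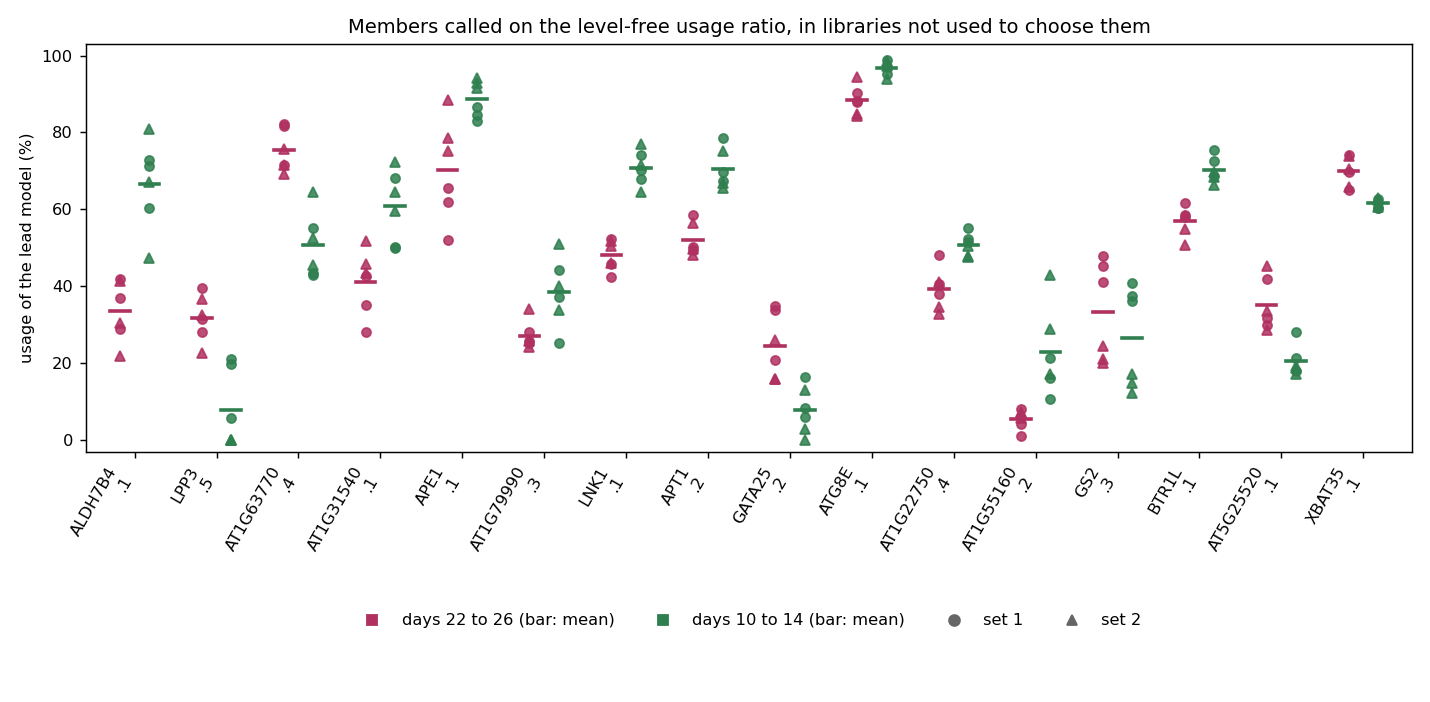
Usage (percent) of the lead model in each of the 6 libraries of days 22 to 26 (red, left of each pair) and of days 10 to 14 (green, right), with the mean as a bar, for the 16 genes that passed on the level-free usage ratio; circles are set 1 and triangles set 2. In ALDH7B4, LNK1 and APT1 all red points lie under all green ones, while in GS2 the sets differ more than the ages do.

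Adjusted p-values in the next 5 paragraphs are from limma over all 2153 genes, and each SD is over the 6 libraries of a window, which span 3 ages and both sets. ALDH7B4 had the largest change of usage among the 16. Model 1 held 22.0%, 33.8% and 42.0% (lowest, median, highest) at days 22 to 26, against 47.4%, 69.2% and 80.9% at days 10 to 14, so that the windows did not overlap. The log2 ratio fell by 1.94 (SE 0.21, adjusted p = 1.0e-04; 0.005 on the level-free ratio), by 32.2 points in set 1 and 33.8 points in set 2. The model rose in FPKM all the same, to 38.4 ± 5.7, against 21.1 ± 5.9, while model 2 stood at 80.6 ± 27, against 12.7 ± 10 (SD, n = 6 each).

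LNK1, a coactivator of the circadian clock, held 42.4%, 48.4% and 52.4% in model 1 at days 22 to 26 (lowest, median, highest), against 64.6%, 70.9% and 77.0% at days 10 to 14. Its log2 ratio fell by 1.34 (SE 0.18, adjusted p = 0.00032; 0.0075 level-free). Model 1 was at 37.1 ± 5.2 FPKM against 35.9 ± 4.6 FPKM, and model 2 at 39.7 ± 4.5 FPKM against 15.05 ± 4.6 FPKM, so the shift of share went with the second model. At days 28 and 30 model 1 held 52.3%, 51.4%, 45.2% and 47.1%, against 78.6%, 77.2%, 79.6% and 79.2% at days 6 and 8, so that days 22 to 26 were already at the old value. LNK1 overlaps the gene AT5G64160.

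APE1, needed for the acclimation of photosynthesis to changing light, held 52.1%, 70.4% and 88.6% in model 1 at days 22 to 26, against 82.9%, 89.1% and 94.1% at days 10 to 14. The windows overlapped because the sets differed: the drop was 24.8 points in set 1 and 12.1 points in set 2 (log2 ratio -1.66, SE 0.22, adjusted p = 0.00028; 0.021 level-free). Model 1 was at 51.1 ± 9.7 FPKM against 92.1 ± 7.2 FPKM, and model 2 at 21.8 ± 10 FPKM against 11.6 ± 4.8 FPKM. The gene as a whole fell, by 0.51 on the log2 scale (adjusted p = 7.8e-07, limma over 17279 genes), while its second model did not go down with the first. GS2, the chloroplast glutamine synthetase that recaptures ammonium, also fell as a whole, by 1.29 on the log2 scale (adjusted p = 1.4e-09). Its model 3 held 20.1%, 32.8% and 48.0%, against 12.3%, 26.7% and 40.8%, a gain of 6.64 points in set 1 and 7.01 points in set 2 (adjusted p = 0.017; 0.050 level-free). The windows overlap almost wholly and the call rests on comparing ages within each set: without the set as a block the limma adjusted p was 0.61, or 0.90 level-free.

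APT1, which salvages adenine into AMP, held 48.1%, 49.9% and 58.5% in model 2, against 65.5%, 68.5% and 78.6%, with no overlap (log2 ratio -1.09, SE 0.16, adjusted p = 0.00067; 0.013 level-free). Model 2 was at 42.7 ± 8.0 FPKM against 30.97 ± 4.6 FPKM, while the other models stood at 39.6 ± 9.1 FPKM against 12.9 ± 2.6 FPKM. ATG8E, one of the ubiquitin-like proteins that coat autophagosomes, held 84.3%, 88.1% and 94.4% in model 1, against 94.0%, 97.3% and 99.0% (log2 ratio -1.13, SE 0.23, adjusted p = 0.0039; 0.030 level-free). Its second model went to 5.55 ± 2.5 FPKM against 0.867 ± 0.62 FPKM, and reached 74.4 FPKM (set 1) and 90.6 FPKM (set 2) at day 30, against 0.84 and near 0 (set 1) and 0.65 and 0.28 (set 2) at days 6 and 8. A close relative, APG8A, another member of the ATG8 family, is the gene just outside the limit. It was at 84.5% model 1 at days 28 and 30, against 98.0% at days 6 and 8, the days of the choice. In the unused libraries APG8A did not pass (limma adjusted p = 0.80, or 0.17 level-free).

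XBAT35, a RING-type ubiquitin ligase with ankyrin repeats, had the smallest spread of these genes. Model 1 held 65.1%, 70.2% and 74.1% at days 22 to 26, against 60.3%, 61.6% and 63.1% at days 10 to 14, without overlap (log2 ratio 0.54, SE 0.13, adjusted p = 0.009; 0.050 level-free). GATA25, a GATA zinc finger transcription factor, held 15.8%, 23.5% and 34.9% in model 2, against near 0, 7.28% and 16.5% (log2 ratio 1.32, SE 0.21, adjusted p = 0.0011; 0.015 level-free). LPP3 held 22.8%, 32.0% and 39.5% in model 5, against near 0, 2.90% and 21.2% (log2 ratio 1.63, SE 0.32, adjusted p = 0.0033; 0.050 level-free). In LPP3 the switch was an addition of 1 model: model 5 was at 4.23 ± 0.96 FPKM against 0.746 ± 1.0 FPKM, beside 8.97 ± 0.73 FPKM against 8.21 ± 0.70 FPKM of the other 4. BTR1L, a KH-domain RNA-binding protein, held 50.8%, 58.1% and 61.8% in model 1, against 66.4%, 69.3% and 75.5% (log2 ratio -0.78, SE 0.15, adjusted p = 0.0036; 0.045 level-free). The windows of LPP3 and BTR1L did not overlap, and those of GATA25 touched.

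The other 6 of the 16 are known here by locus only. AT1G63770 exchanged models, with model 4 at 62.4 ± 4.8 FPKM against 36.1 ± 10 FPKM and the others at 20.7 ± 6.1 FPKM against 34.2 ± 3.5 FPKM, and a usage of 69.1%, 73.7% and 82.3% against 42.9%, 49.0% and 64.7% (limma adjusted p = 0.00091). AT1G55160 held 1.22%, 6.39% and 8.08% in model 2, against 10.7%, 19.3% and 42.9% (limma adjusted p = 0.001). Neither gene's windows overlapped. In AT5G25520 model 1 averaged 35.2%, against 20.5%, in AT1G31540 model 1 averaged 41.2%, against 60.8%, in AT1G22750 model 4 averaged 39.2%, against 50.8%, and in AT1G79990 model 3 averaged 27.2%, against 38.6% (limma adjusted p = 0.0062, 0.00062, 0.011 and 0.0071). Besides LNK1, the genes APE1, AT1G63770, AT1G79990, AT1G22750, AT1G55160 and AT5G25520 overlap another annotated gene.

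Several of the largest differences on the main scale did not hold on the level-free one. SAMDC, the S-adenosylmethionine decarboxylase of polyamine synthesis, had model 4 at 15.2%, 83.4% and 100% at days 22 to 26, against 15.1%, 36.6% and 86.5% at days 10 to 14. Its log2 ratio of 3.65 (SE 0.82) had a limma adjusted p of 0.0075, which was 0.11 on the level-free ratio and 0.19 without the set as a block, and the windows spanned nearly the whole range in both groups. AHL10, an AT-hook protein of the nucleus, was clearer: model 4 held 88.1%, 90.8% and 98.1%, against 24.6%, 66.8% and 88.3% (log2 ratio 2.48, SE 0.38, limma adjusted p = 0.00079; 0.097 level-free). AT2G02870 had model 2 near 0 in all 6 libraries of days 22 to 26, against 10.7% in 1 library and near 0 in most others of days 10 to 14, and its limma adjusted p of 1.8e-05 became 0.69 level-free; the summed level of the gene rose by 1.60 on the log2 scale. SS1, a soluble starch synthase, held 69.1%, 82.6% and 92.3% in model 1, against 87.4%, 91.9% and 100%, with a limma adjusted p of 0.031 (0.20 level-free, and 0.070 without the set as a block) and a call in 11 of the 18 fits that leave out 1 library.

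Of the 12 genes with the largest choice values, AT1G21780 (limma adjusted p = 0.012; 0.091 level-free), AT5G47710 (0.019; 0.17) and BCA4 (0.0066; 0.081) passed on the main scale only, beside ALDH7B4, LPP3 and AT1G63770, which passed on both. BCA4 held 19.9%, 51.9% and 64.3% in model 2 at days 22 to 26, against 53.4%, 66.2% and 76.4%, with an adjusted p of 0.054 (limma) without the set as a block, and most of its change lay later, at days 26 to 30. AT4G32250 (0.44), PILS3 (0.051), AT1G75180 (0.061), AT4G03020 (0.90), PIP5K9 (0.78) and BEL10 (0.13) did not pass on the main scale (limma adjusted p). At the edge of the group PAP8, MLO1 and AT5G17010 had adjusted p-values of 0.25, 0.29 and 0.69 (limma). The 2 genes LCB2 and AT3G47370 passed against the direction of the choice on the main scale. Neither passed on the level-free ratio or on the share. LCB2, a subunit of the enzyme that starts sphingolipid synthesis, had model 1 at 84.8% ± 10.8 against 67.4% ± 9.8 (SD, n = 6 each; limma adjusted p = 0.028), and model 3 of AT3G47370 held at most 3.62% against at most 4.74% (limma adjusted p = 0.034). With 1 library left out at a time LCB2 passed in 11 and AT3G47370 in 9 of 18 fits, and AT5G47710 in 15.

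Genes of known role were grouped by hand after their values had been seen, 83 of the 200 in 10 roles, so the groups carry no test. The values of days 28, 30, 6 and 8 given for these genes, overlap included, are those that chose them and support nothing. The 14 transcription and chromatin genes included 9 with a gain and 5 with a loss of the lead model. WRKY20, a WRKY transcription factor, held 62.2%, 63.8%, 48.3% and 47.9% in model 1 at days 28 and 30, against 25.5%, 16.8% and 11.6% in 3 libraries of days 6 and 8 and near 0 in the fourth. BLH1 and BLH2, relatives of BEL10, went apart: the model 1 of BLH1 held 20.4%, 25.4%, 31.4% and 33.4%, against 58.9%, 39.1%, 34.2% and 63.8%, and that of BLH2 held 90.9%, 85.1%, 87.5% and 76.9%, against 61.2%, 59.2%, 65.6% and 70.7%. All 3 had separate old and young libraries. PIF5, a phytochrome-interacting factor that promotes dark-induced senescence, held 48.6%, 32.0%, 46.3% and 44.9% in model 3, against 39.8%, 11.4%, 13.2% and 32.0%, with overlap.

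Of 8 genes of plastid function, the lead model lost share in 6 and gained it in GS2 and ACHT4. The levels did not follow 1 course. In GS2 the model that gained share averaged 27.3 FPKM in old leaves against 165 FPKM in young leaves, and in ASP5, an aspartate aminotransferase whose model 2 lost share, the gene's summed FPKM averaged 59.96 against 58.36. HEME1 and HEMB1, enzymes of the tetrapyrrole pathway that leads to chlorophyll, had lead models at 4.52 and 5.59 FPKM in old leaves, against 75.5 and 33.4 FPKM in young leaves. Model 1 of HEME1 held 79.4%, 63.2%, 56.4% and 40.8%, against 72.9%, 72.9%, 77.9% and 74.5%, and that of HEMB1 held 6.09%, 11.6%, 33.6% and 28.1%, against 23.3%, 42.8%, 38.3% and 77.7%. Old and young libraries overlapped in both genes. SS1 was more even, with 86.7%, 72.8%, 72.3% and 80.0% in old leaves, against 96.5%, 94.0%, 94.5% and 92.8% in young leaves.

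Among 11 other enzymes of metabolism, 8 had a loss and 3 a gain. PPDK (pyruvate orthophosphate dikinase, known in Arabidopsis for separate plastid and cytosolic forms and for a part in moving nitrogen out of old leaves) had 6 models, of which model 2 held 48.2%, 65.03%, 42.9% and 61.6% at days 28 and 30, against 40.5%, 30.3%, 29.1% and 13.1% at days 6 and 8. Model 2 averaged 135 FPKM in old leaves against 4.97 FPKM in young leaves, and the other models 108 FPKM against 14.2 FPKM. At days 22 to 26 it held 29.8%, 32.5% and 40.2%, against 14.0%, 21.9% and 30.2% at days 10 to 14 (limma adjusted p = 0.018, 15 of 18 fits with 1 library left out; 0.10 level-free, and 0.084 without the set as a block). AOAT2, an aminotransferase, held 72.2%, 62.0%, 74.9% and 73.4% in model 1, against 91.5%, 90.2%, 91.1% and 94.4%, without overlap. SNG1, which makes sinapoylmalate, held 19.8%, 8.33%, 35.5% and 11.1% in model 1, against 38.1%, 42.2%, 39.2% and 50.3%, also without overlap.

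Of 9 lipid genes, 6 had a gain. ORP2A, an oxysterol-binding protein relative, held 66.4%, 74.1%, 68.1% and 68.1% in model 2 in old leaves, against 26.95%, 25.8%, 48.7% and 45.8% in young leaves. LPP1, like LPP3 a lipid phosphate phosphatase, held 84.7%, 94.7%, 94.7% and 98.5% in model 1, against 71.3%, 79.5%, 65.5% and 74.7%. Neither gene's old and young libraries overlapped. In the unused libraries both passed on the main scale at days 22 to 26 against days 10 to 14 (limma adjusted p = 0.0076 and 0.0087), but not level-free (0.066 and 0.35). The 2 subunits of serine palmitoyltransferase, LCB1 and LCB2, both had a loss of model 1 on the days that chose them, at -14.5 and -18.9 points. In the unused libraries LCB2 passed in the opposite direction on the main scale, as given above. Usage of LCB1, as the mean of both sets, did not settle past its midpoint.

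Of 12 transporters, 7 had a gain. ZIF2, a transporter linked to zinc tolerance, held 26.8%, 55.0%, 38.4% and 51.7% in model 1, against 3.99% in 1 young library and near 0 in the other 3. ABCC1, a vacuolar ABC transporter, held 22.6%, 24.7%, 22.2% and 28.6% in model 1, against 16.5%, 6.84%, 6.33% and near 0. HA3, a plasma membrane proton pump, held 67.3%, 57.0%, 60.1% and 50.4% in model 1, against 76.9%, 81.9%, 78.7% and 82.2%. Old and young libraries did not overlap in these 3 genes. In the unused libraries ABCC1 and HA3 passed on the main scale (limma adjusted p = 0.025 and 0.020, in 11 and 13 of 18 fits with 1 library left out; 0.12 and 0.11 level-free). ERD6, a sugar transporter relative, was inconsistent: model 1 held 87.9% and 100% in old leaves of set 1 but near 0 in those of set 2, against 100%, 100%, 90.1% and near 0 in young leaves.

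The 7 kinases, phosphatases and receptors had 5 gains. CPK28, a calcium-dependent protein kinase, held 67.5%, 71.6%, 60.6% and 64.0% in model 1, against 4.73%, 35.4%, 42.6% and 31.2%, without overlap. At days 22 to 26 it stood at 60.2% ± 11, against 57.0% ± 10 at days 10 to 14 (limma adjusted p = 0.55), so both windows were near the old value. PTI1-4, a kinase, held 95.3%, 97.8%, 90.5% and 95.3% in model 1, against 74.6%, 75.1%, 77.9% and 72.2%. Among the 5 ubiquitin ligase genes RGLG2, a RING ligase, had model 2 at 2.68%, 1.29%, 5.20% and 1.29%, against 36.1%, 25.1%, 55.9% and 34.9%, while its other models averaged 58.3 FPKM in old leaves against 6.63 FPKM in young ones. XBAT35 held 77.2%, 75.6%, 77.0% and 75.4%, against 64.1%, 63.2%, 59.0% and 61.5%, the narrowest groups of any ligase.

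The 4 genes of autophagy and the peroxisome, the organelle of fatty acid breakdown, were ATG8E, PEX4, PEX11D and KAT5. ATG8E held 79.8%, 70.0%, 84.7% and 64.6% in model 1 at days 28 and 30, against 94.4%, 100%, 97.2% and 98.4% at days 6 and 8. PEX11D, which acts in peroxisome division, held 16.4%, 36.9%, 11.1% and 24.4% in model 1, against 5.67%, 8.80%, near 0 and 5.25%, both without overlap. The 3 hormone genes, ETO1, LOG8 and SPY, had gains of model 1. SPY, a repressor of gibberellin signalling, held 94.1%, 100%, 97.7% and 100%, against 79.5%, 87.0%, 70.8% and 81.5%, but was at 98.8% ± 2.9 and 99.5% ± 1.1 at days 22 to 26 and days 10 to 14 (limma adjusted p = 0.24).

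Of the 10 RNA processing genes, which act on transcripts themselves, 6 had a gain and 4 a loss of the lead model. CPSF73-I, the endonuclease that cuts the 3' end of messages, held 74.7%, 89.8%, 88.5% and 81.8% in model 1 in old leaves, against 46.0%, 55.1%, 41.7% and 63.9% in young leaves. In the unused libraries it held 59.0%, 73.2% and 82.2%, against 34.8%, 46.7% and 65.1% (limma adjusted p = 0.027, 12 of 18 fits with 1 library left out; 0.18 level-free). SR30, an SR protein, held 92.5%, 92.2%, 80.1% and 89.4% in model 1, against 67.9%, 69.9%, 79.2% and 63.0%, while model 1 averaged 49.6 FPKM in old leaves against 8.27 FPKM in young ones. At days 22 to 26 it was at 80.8% ± 6.4, against 77.5% ± 4.4 at days 10 to 14, and did not pass (limma adjusted p = 0.21). RS2Z33, another SR protein, held 76.2%, 59.8%, 62.3% and 60.3%, against 75.6%, 81.3%, 77.5% and 80.2% in model 1, with overlap, and stood at 77.3% ± 5.5 against 77.8% ± 3.8 in the unused libraries (limma adjusted p = 0.89).

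ATU2AF65A, the large subunit of the factor that marks the 3' splice site, held 74.1%, 65.8%, 60.4% and 60.7% in model 1, against 83.8%, 78.8%, 84.0% and 80.5%, without overlap. It was at 69.5% ± 5.9 against 77.6% ± 5.9 at days 22 to 26 and 10 to 14 (limma adjusted p = 0.045; 4 of 18 fits with 1 library left out; 0.18 level-free, and 0.26 without the set as a block). PTB1, a polypyrimidine tract binding protein, was at 100% model 1 in all 4 old libraries, against 89.97%, 83.8%, 60.2% and 100%, and did not pass in the unused libraries (limma adjusted p = 0.97). AGO1, the main Argonaute of the microRNA pathway, held 70.9%, 51.6%, 66.2% and 61.9% in model 2, against 48.8%, 56.6%, 28.1% and 25.5%, with overlap (limma adjusted p = 0.094 in the unused libraries).

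The summed level of the genes, all models together, was also set between days 22 to 26 and days 10 to 14. Of the 200, 136 were higher and 32 lower, where 63.3% of 17279 genes were higher and 21.6% lower (limma, adjusted over 17279 genes), so the count is near the background. The median of all genes was itself shifted by 0.45 on the log2 scale, and that of the 200 by 0.49. After quantile normalization, which removes that shift (0.06 and 0.07), 81 of the 200 were higher and 65 lower, where 41.2% and 34.7% of all genes were. The 17279 genes include genes of lower level and with 1 model, and whether the 200 differ from them in summed level was not tested.

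Genes of the RNA processing machinery were looked at in the same libraries, where 63.3% of all genes were higher and 21.6% lower (41.2% and 34.7% after quantile normalization). Of 19 SR genes measured, 19 were higher at days 22 to 26 than at days 10 to 14, and 15 after quantile normalization with none lower, with a median difference of 0.74 on the log2 scale against 0.45 for all genes (0.33 against 0.06 after quantile normalization). SCL33 was at 15.6 ± 1.3 FPKM against 8.16 ± 1.1 FPKM, and RSZ21 at 15.5 ± 1.8 FPKM against 8.09 ± 0.61 FPKM (SD, n = 6 each; limma adjusted p = 1.1e-07 and 1.8e-08). Of 24 other splicing factors and kinases 22 were higher and none lower, with a median of 0.58, but after quantile normalization 11 (45.8%) were higher and 4 lower, near the share of all genes. U2AF35A, the small subunit of the 3' splice site factor, was at 29.2 ± 2.1 FPKM against 14.2 ± 2.6 FPKM, and the RNA-binding protein GRP7 at 9.16 ± 3.2 FPKM against 3.85 ± 1.1 FPKM (limma adjusted p = 5.6e-09 and 3.2e-06).

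All 8 genes of nonsense-mediated decay and the exon junction complex were higher, but 4 (50%) after quantile normalization, where 41.2% of all genes were. UPF3 and UPF1, core decay factors, were at 24.8 ± 3.2 and 38.2 ± 3.8 FPKM, against 12.4 ± 2.1 and 21.6 ± 2.8 FPKM (limma adjusted p = 5.4e-09 and 5.7e-08). Of 14 cleavage and polyadenylation genes 13 were higher and 1, PABN3, lower, but after quantile normalization 6 (42.9%) were higher and 1 lower, again near the share of all genes. CSTF77 and CSTF64, of the factor that binds downstream of the cut site, were at 12.9 ± 1.1 and 11.8 ± 1.7 FPKM, against 5.22 ± 1.1 and 4.99 ± 1.2 FPKM (limma adjusted p = 6.0e-09 and 2.4e-08). No gene of these 4 lists passed in lead model usage on the level-free ratio (limma adjusted p; 1, 2, none and 2 had an unadjusted p under 0.05), and on the main scale 2, 5, 1 and 1 of the 13, 12, 2 and 4 genes that met the FPKM limit did, where 28.7% of all genes did.

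**Figure D5:**
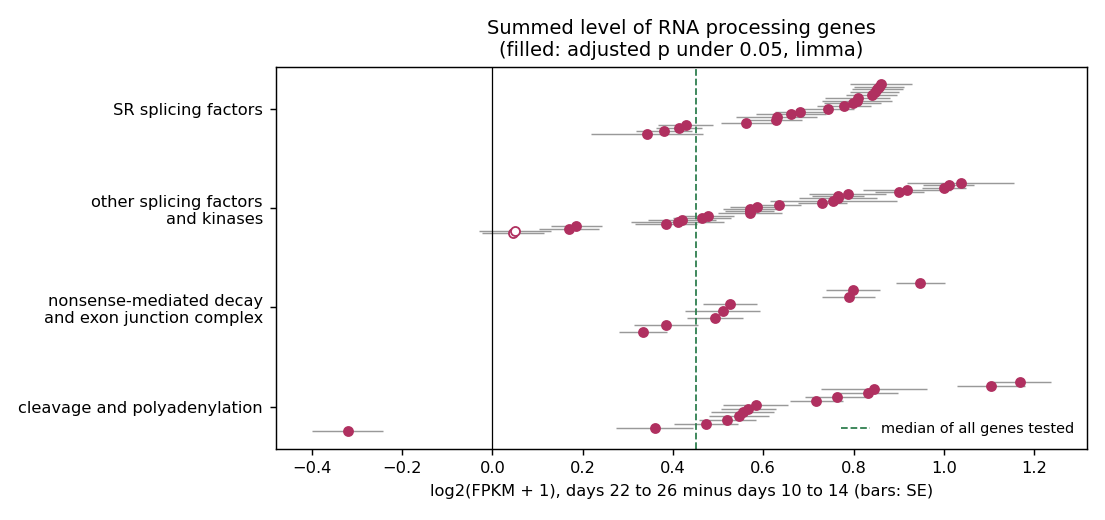
Difference in summed level, log2(FPKM + 1), between days 22 to 26 and days 10 to 14 for each measured gene of 4 RNA processing lists, with bars for the SE; filled points passed at an adjusted p under 0.05 (limma over 17279 genes) and the dashed line is the median of all genes tested, 0.45. Most SR genes lie right of the line, and PABN3 is the one gene lower than 0.

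Genes with alternative transcripts known from the literature and clock genes were looked at in the same way. Of 20 measured genes with published alternative transcripts, 13 were higher and 4 lower (9 and 6 after quantile normalization), and none was among the 200. These shares, 65% higher and 45% after quantile normalization, are near the 63.3% and 41.2% of all genes and are no result about the list. Its largest differences were PIF6 at 3.06 ± 0.67 FPKM against 0.119 ± 0.14 FPKM and ZIFL1 at 7.44 ± 1.5 FPKM against 1.58 ± 0.54 FPKM (limma adjusted p = 2.9e-08 and 1.4e-08). Of 12 clock genes 8 (66.7%) were higher and 2 lower, and 5 (41.7%) and 4 after quantile normalization, also near the shares of all genes. The largest differences were in TOC1 at 12.7 ± 2.6 FPKM against 4.43 ± 1.6 FPKM and LHY at 58.5 ± 9.8 FPKM against 28.6 ± 7.8 FPKM (limma adjusted p = 5.4e-08 and 2.5e-05). Clock genes cycle through the day, the labels do not state the hour of harvest, and the part of the hour in these values and in those of LNK1 was not tested.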

How the data were processed

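Total RNA of wild-type leaves was measured at 14 ages in 2 sets. The authors deposited FPKM values per transcript, 1 table per set, 41673 transcripts each; per the submitters' processing notes TopHat 1.4.0, Cufflinks and the TAIR10 genome were used, and they do not say how reads shared by models were divided. The 2 sets were read from separate tables, so the set was a block in every fit except the alternatives run without it. No columns of other samples were present.

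From these values, usage was computed per model as its FPKM over the gene's summed FPKM, and the 200 genes were chosen as the report states. Where several models qualified, the lead model is the one with the largest mean change, and of tied models the one with the lowest number. The genes and lists were chosen with earlier results of these data known. Limma 3.58.1 (trend, R 4.3.3) was fitted to the 18 libraries of days 10 to 26, with day as a factor, on log2((lead FPKM + 1)/(other FPKM + 1)) for 2153 genes, and on log2(summed FPKM + 1) for the 17279 genes that reached 1 FPKM in 2 or more libraries. A fold change on such a scale understates that of low genes. The level-free ratio, log2((usage + 0.05)/(1 - usage + 0.05)), was added after the data were seen, with its own alternatives. P-values were Benjamini-Hochberg adjusted, threshold 0.05.

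The set numbers pair libraries: differences between sets correlated between every pair of days, at 0.20 to 0.41 for the log2 ratio over 36 pairs of days and 0.093 to 0.55 for the summed level. The report names the 12 largest changes, the 10 largest differences in unused libraries among genes past the threshold, genes of the lists in the group, the 3 genes on each side of the limit and 2 genes per RNA list. It also names the 16 genes that passed level-free and the role examples, picked after their values were seen. A part of the rule on the kind of model difference was void, since no model structures were used here. Tested on simulated data, the usage fit on the main scale recovered 23% of changes of 0.5 and 53% of changes of 1 (log2). It called 0.10% of unchanged genes, and the level fit gave 68%, 97% and 0.047%. The simulated noise was normal and independent between libraries, with no set effect. For usage it held no change of summed level, so it does not cover calls that come from level. The level-free ratio was not simulated. The root marker list is not reported here. Names come from RefSeq TAIR10.1. Alternatives were another pseudocount, the share, the level-free ratio, other windows, day 4 added, no filter, no block, quantile normalization and each library left out.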

Additional observations from a re-analysis of the deposited data

Results flagged for a closer look

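Usage in each window of 6 libraries was searched for a library far from the rest, for 25 named genes and both windows (50 windows in all), with a critical gap of 0.625 of the range; chance flags about 1 group in 20. There were 4 such libraries. Model 3 of AT1G75180 was at 59.97% in day 10 of set 1, where the next highest library of days 10 to 14 was at 29.0%. Model 2 of PIP5K9 was at 34.9% in day 26 of set 1, where the next highest of days 22 to 26 was at 11.9%. Model 2 of AT2G02870 was at 10.7% in day 12 of set 2, where the next highest of days 10 to 14 was at 0.27%. Model 1 of PAP8 was at 23.4% in day 12 of set 2, where the next lowest of days 10 to 14 was at 71.3%. No explanation of these values was tested.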

How the results depend on the processing

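The count of the 200 genes that passed at days 22 to 26 against days 10 to 14 (48, of which 46 in the direction of the choice) moved by more than 1.5 times under these settings. It was 23 (23 in that direction) with a pseudocount of 0.1, 11 (11) on the untransformed share, 16 (16) on the level-free ratio, 27 (27) with days 20 to 24 in place of 22 to 26, and 30 (29) with day 4 added to the fit. Leaving out 1 library at a time gave 31 to 51 (31 to 49), lowest without day 24 of set 2. Over all 2153 genes, 618 passed, 162 with the pseudocount of 0.1, 23 on the share, 37 level-free, 366 with day 4 added, and 503 to 624 with 1 library left out; without the FPKM limit 1393 of 5104 passed. On the level-free ratio the 16 became 5 without the replicate block (12 of all genes), 9 with days 24 and 26 against 10 and 12 (18), 3 with days 20 to 24 in place of 22 to 26 (10), 13 and 12 with offsets of 0.01 and 0.1, and 6 to 11 with 1 library left out (13 to 35), lowest without day 14 of set 1 or either day 16 library. The causes were not tested beyond what the scales themselves do. Genes with the direction of the choice numbered 139 to 150 with 1 library left out, and the summed level gave 133 to 138 higher and 30 to 33 lower members (165 to 170 in all), and 10689 to 10956 and 3580 to 3802 genes overall. Quantile normalization gave 81 and 65, and 7111 and 6002 overall. On the main scale without the replicate block 34 of the 200 passed (32 in the direction of the choice) and 513 of all genes. Among the genes whose calls the report prints, BCA4, PPDK, SAMDC, SS1, ATU2AF65A and GS2 passed on that scale only with the block. On the level-free ratio the only genes of the 16 that passed without it were ALDH7B4, AT1G63770, LNK1, APT1 and ATG8E. Membership changed too: 90 of the 200 stayed with a limit of 10 FPKM, 54 with 1 FPKM, 137 without day 30, 160 without day 28 and 152 to 177 without 1 library.

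Named differences that changed sign had not passed. They were AT4G03020 (-0.36 with narrower windows), MLO1 (-0.011, the same), APG8A (0.29 without day 26), KIN11 (0.028 with a pseudocount of 0.1 and 0.29 with narrower windows), PTB1 (0.015 on the share and 0.36 without day 26) and RS2Z33 (-0.012 with a pseudocount of 0.1, -0.0049 on the share and -0.022 level-free). Leaving out 1 library at a time spanned 0 for AT4G03020 (-0.017 to 0.21), PIP5K9 (-0.70 to 0.23), PTB1 (-0.53 to 0.44), RS2Z33 (-0.10 to 0.21), AT5G17010 (-0.30 to 0.041), APG8A (-0.32 to 0.082) and KIN11 (-0.86 to 0.15). FPKM gives no depth, so how far read numbers limit the low models is unknown.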
